A study of Mus musculus with 27 samples.

Results

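The genes described here encode 10 components of the MHC class I antigen presentation pathway: H2-K1, H2-D1, B2m, Tap1, Tap2, Tapbp, Tapbpl, Psmb8, Psmb9 and Psmb10. They were chosen by name and not by a measured value, from a count table that lists 33924 gene symbols, and all 10 were measured in every library. The data are RNA sequencing counts in 27 libraries of mouse thyroid origin, in 9 groups of 3. Of these libraries, 24 came from 12 tumor cell lines grown out of dissected, enzyme-digested thyroid tumors, and every line carried Braf(V600E), the mutant kinase that keeps the MAPK pathway active. The lines had 4 genotypes with 3 lines each: Braf(V600E) alone, Braf(V600E) + Arid1a KO, Braf(V600E) + Arid2 KO and Braf(V600E) + Smarcb1 KO, where KO is a knockout. The knocked-out genes code for parts of SWI/SNF, a large complex that moves nucleosomes. Each line was sequenced after vehicle and after CH5126766 (CKI), a drug that inhibits RAF and MEK, given at 300 nM for 8 days. So all comparisons between knockouts were made on a Braf(V600E) background, and the "Braf" lines below are the controls for the knockouts. The remaining 3 libraries were labelled wildtype with no treatment. The sources used here do not give the driver of the alleles, the age of the animals or whether a line is a single clone. The labels also do not make clear whether the vehicle arm received the bovine TSH named with the drug.

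MHC class I molecules show short peptides from inside the cell to CD8 T cells. Immunoproteasomes, in which Psmb8, Psmb9 and Psmb10 replace the constitutive subunits Psmb5, Psmb6 and Psmb7, cut proteins into peptides, and the Tap1-Tap2 transporter pumps the peptides into the endoplasmic reticulum. Tapasin (Tapbp) and its relative TAPBPR (Tapbpl) help to choose the peptide that is loaded onto a heavy chain (H2-K1 or H2-D1) paired with beta-2 microglobulin (B2m). Interferons raise most of these genes in many cell types, and tumor cells can have low levels of them.

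Depth and identity of the libraries were as follows. Levels are given in CPM, a gene's share of its library's counts scaled to a common total. Total counts lay between 18417255 and 27257703, but 2 Smarcb1 KO libraries under CKI were shallower, BS53958 (11684983) and BS53965 (2884130). Arid1a KO line BA45198 in vehicle stood apart, with 2470 CPM summed over 26 type I interferon response genes, against 208 to 592 CPM in the other vehicle libraries. Smarcb1 itself was at 0.0475 to 3.27 CPM in its knockout libraries and at 67.9 to 99.1 CPM elsewhere. Arid1a was at 62.7 to 96.1 CPM in its knockouts against 114 to 357 CPM elsewhere. Arid2 was not lower in libraries labelled Arid2 KO (78.2 to 175 CPM) than elsewhere (77.6 to 151 CPM), so the count of Arid2 does not check that label. The 8 thyroid follicle markers summed to 229000 to 348000 CPM in the libraries labelled wildtype and to at most 982 CPM in the tumor lines. The same wildtype libraries also carried leukocyte, endothelial and fibroblast markers, although their source label reads as a tumor cell line.

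The stretches of promoter sequence below are shown because the peptide-receiving chains (H2-K1, H2-D1, B2m) and the Tap1-Psmb9 gene pair differed in how often they were higher under CKI. They are the 250 bases before the RefSeq start of each of the first 3 genes, read along the gene, and the 225 bases between the starts of Tap1 and Psmb9, which lie back to back. Capitals mark NF-kB motif matches in all 3 single promoters, the interferon regulatory factor (IRF) motif GAAANNGAA in B2m, and the CCAAT box in the shared interval. CCAAT boxes also lie in the H2-K1, H2-D1 and B2m stretches, where they are left in lower case. In the GRCm38.p6 build they are chr17:34000348-34000597 on the minus strand for H2-K1, chr17:35262844-35263093 on the plus strand for H2-D1, chr2:122147437-122147686 on the plus strand for B2m and chr17:34187331-34187555, read on the plus strand toward Tap1.
H2-K1: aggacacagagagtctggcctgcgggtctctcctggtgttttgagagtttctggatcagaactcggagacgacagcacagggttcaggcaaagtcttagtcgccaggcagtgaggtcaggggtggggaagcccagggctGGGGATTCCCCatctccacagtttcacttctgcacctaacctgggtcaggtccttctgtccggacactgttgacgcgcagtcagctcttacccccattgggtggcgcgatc
H2-D1: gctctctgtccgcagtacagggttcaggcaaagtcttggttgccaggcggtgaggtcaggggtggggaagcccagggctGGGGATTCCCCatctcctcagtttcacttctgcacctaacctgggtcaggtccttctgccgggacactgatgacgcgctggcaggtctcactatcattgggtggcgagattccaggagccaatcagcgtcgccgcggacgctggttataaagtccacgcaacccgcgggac
B2m: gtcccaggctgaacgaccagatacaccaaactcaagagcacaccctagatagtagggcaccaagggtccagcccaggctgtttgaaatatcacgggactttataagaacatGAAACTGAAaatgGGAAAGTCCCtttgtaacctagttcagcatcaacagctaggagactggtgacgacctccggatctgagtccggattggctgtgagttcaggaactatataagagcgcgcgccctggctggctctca
Tap1-Psmb9 interval: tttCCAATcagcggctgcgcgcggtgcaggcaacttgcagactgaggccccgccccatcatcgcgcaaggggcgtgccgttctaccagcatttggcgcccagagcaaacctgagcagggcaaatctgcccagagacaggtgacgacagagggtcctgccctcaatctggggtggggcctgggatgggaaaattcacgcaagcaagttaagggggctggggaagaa

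Promoters were found for 8 of the 10 genes in the RefSeq table, which covers 250 bases before to 50 after a start, and H2-K1 had a pair of overlapping windows there. Both strands were searched. The NF-kB motif lay at bases -111 to -101 of the first H2-K1 window, -171 to -161 of H2-D1 and -126 to -117 of B2m, counted from the start, with a pair of matches 1 base apart in each heavy chain. No match to the NF-kB, IRF and STAT motifs overlapped one to another of these motifs. It was not in the windows of Tap1, Tapbp, Psmb8, Psmb9 or Psmb10, and it was in 8.46% of 32851 promoter windows. The IRF motif, searched only as the letters GAAANNGAA, was in B2m alone (-139 to -131), against 8.56% of all windows. Other forms of IRF site were not searched, so their absence from the other windows is not shown. The STAT motif TTCNNNGAA was in Psmb8 alone (-97 to -89), against 8.3%. No window held the AP-1 motif TGANTCA, which 7.81% of all windows held. The CCAAT box was in the windows of H2-K1, H2-D1, B2m, Tap1, Tapbp and Psmb9, and in 37.4% of all windows. Tap1 and Psmb9 start 226 bases apart on opposite strands, and their windows share 275 bases. These matches describe letters in the reference, since binding was not measured.

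The data showed the following pattern across comparisons, each tested over all measured genes with edgeR's quasi-likelihood test at a Benjamini-Hochberg adjusted p under 0.05. Against the wildtype libraries, 8 of the 10 genes were lower in vehicle-treated Braf lines and 0 were higher, where 22.8% of 16821 genes tested were lower and 46.5% changed either way. Without Braf line B48051, 5 of the 10 were called: Tap2, Tapbpl, Psmb8, Psmb9 and Psmb10. The median log2 change of the 10 genes was -1.78, beside 0.02 over all genes.

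Several peptide-supply genes stood higher in Smarcb1 KO lines than in Braf lines, and differences between the knockouts were not tested. In vehicle, Tap2, Psmb8, Psmb9 and Psmb10 were higher and Tapbpl was lower, 5 called genes of 10, where 18.1% of 15634 genes were called (6.93% higher, 11.2% lower). Under CKI, Tap2, Psmb9 and Psmb10 were higher and Tapbpl was lower, with 23.1% of all genes called (10.1% higher, 13.1% lower). With lines BS53958 and BS53965 left out, which leaves BS53736 as the sole Smarcb1 KO line in the fit and assumes that it varies like the other groups, 4 genes in vehicle and 3 under CKI were called. Psmb10 was the gene lost in both. With Braf line B47275 left out, 2 genes were called under CKI, Tap2 and Tapbpl.

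In Arid1a KO and Arid2 KO lines at most 1 of the 10 genes was called by edgeR. Tapbpl was the single called gene, lower, in vehicle-treated Arid1a KO lines, where 3.63% of all genes were called and 2.65% were lower. In that comparison 5 of the 10 had an unadjusted p under 0.05 and DESeq2 called 3, Tap2, Tapbpl and Psmb8. The vehicle libraries of Tap2, Psmb8 and Psmb10 in Arid1a KO lines all lay above those of Braf lines. The share of all genes that lay apart in this way was not counted, so nothing is read from the number of these genes. The median log2 difference of the 10 genes was 0.78, and -0.06 without BA45198. Tapbpl was also the single called gene, lower, in Arid2 KO lines in vehicle (0.0512% called, 0.0448% lower) and under CKI (0.064% called, 0.0448% lower). No gene of the 10 was called in Arid1a KO lines under CKI, where 0.736% of all genes were called. There edgeR gave 3 genes an unadjusted p under 0.05 and DESeq2 called 1, H2-K1. Without B52482 edgeR called 2, H2-K1 and Tap2. In vehicle the Arid1a KO count was 2 without BA45198 (H2-D1 and Tapbpl) and 2 without B52482 (Tap2 and Tapbpl).

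CKI against vehicle moved the genes unevenly. Over the 12 lines, with the 4 genotypes weighted equally, Tap2, Tapbp, Tapbpl and Psmb9 were higher under CKI and none was lower, 4 of 10, with 27.2% of all genes called and 13.6% higher. Without lines BS53958 and BS53965, 2 were called, Tap2 and Tapbp. In Arid1a KO lines alone 2 were higher, Tapbp and Tapbpl (13.9% of all genes called, 7.08% higher). This count was 1 without BA47473 (Tapbpl), 0 without BA49112, and 3 without BA45198 (Tapbp, Tapbpl and Psmb9). Within the other genotypes edgeR called 0 of the 10. Genes with an unadjusted p under 0.05 numbered 4 in Braf lines, 2 in Arid2 KO lines and 0 in Smarcb1 KO lines. DESeq2 called 0, 1 (Tap2) and 0. With the cell line as a block, which pairs the libraries of each line, edgeR called 4 in Arid1a KO lines (Tap2 and Psmb9 in addition), 1 in Arid2 KO lines (Tap2), and 0 in Braf and 0 in Smarcb1 KO lines. In the main fit, without this block, the shares of all genes called were 0% in Braf lines, 0.141% in Arid2 KO lines and 0.032% in Smarcb1 KO lines. The shares under the block are not given here, so nothing is read from the number of genes it called. The response to CKI of each knockout was also set against that of Braf lines. There edgeR called 0 of the 10 genes and 0% of all genes in each of the Arid1a KO, Arid2 KO and Smarcb1 KO differences, with 1, 0 and 0 of the 10 at an unadjusted p under 0.05, and DESeq2 called 0 of the 10 in each.

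**Figure D1:**
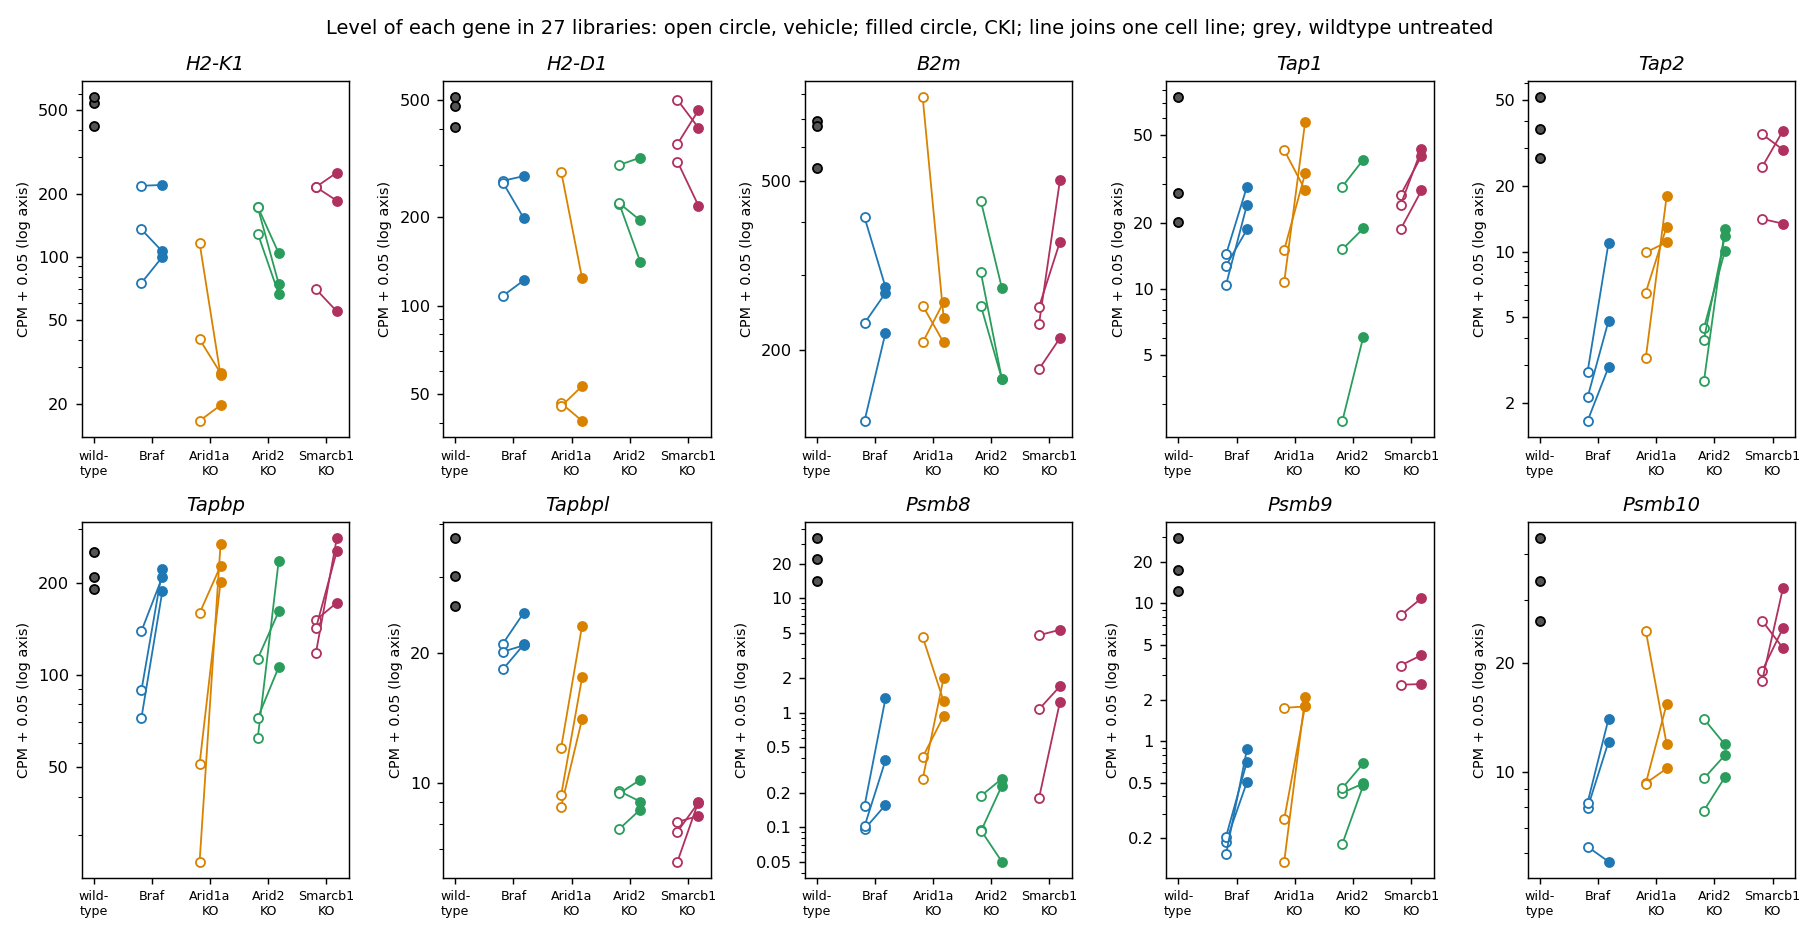
Level of each of the 10 genes in 27 libraries, in CPM with 0.05 added, on log axes that differ between panels. Each point is a library, open for vehicle, filled for CKI and grey for wildtype, and lines join the 2 libraries of a cell line. Psmb8 and Psmb9 lie highest in wildtype, and among the tumor lines Psmb9 lies highest in Smarcb1 KO lines.

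The classical heavy chain H2-K1, which holds the peptide, was at 421, 542 and 576 CPM in the wildtype libraries. In vehicle it was at 218, 75.1 and 135 CPM in Braf lines B47275, B48051 and B52482, and at 116, 16.5 and 40.4 CPM in Arid1a KO lines BA45198, BA47473 and BA49112. It was at 173, 172 and 129 CPM in Arid2 KO lines AB51189, AB52980 and AB55694, and at 215, 215 and 70.1 CPM in Smarcb1 KO lines BS53736, BS53958 and BS53965. All wildtype libraries were above all tumor lines, and the Arid1a KO lines reached lowest while still overlapping the Braf lines. The log2 change of Braf vehicle against wildtype was -1.85 ± 0.6 (SE; edgeR adjusted p = 0.0166). This call was lost without B48051 and without B52482. Against Braf in vehicle the log2 difference of H2-K1 was -1.3 ± 0.62 in Arid1a KO lines (adjusted p = 0.262), 0.15 ± 0.61 in Arid2 KO lines and 0.22 ± 0.61 in Smarcb1 KO lines.

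Under CKI, H2-K1 was at 220, 100 and 106 CPM in Braf lines and at 27.2, 19.6 and 27.9 CPM in Arid1a KO lines, with the lines in the same order as above. These groups did not overlap. It was at 104, 74.3 and 66.5 CPM in Arid2 KO lines and at 252, 185 and 54.9 CPM in Smarcb1 KO lines. The Arid1a KO difference under CKI was -2.5 ± 0.65 on the log2 scale and missed the threshold (edgeR adjusted p = 0.0781). It was called by DESeq2, in the fit of all 27 libraries and without B52482.

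H2-D1, the other classical heavy chain in the table, was at 405, 512 and 477 CPM in wildtype and, in vehicle, at 266, 108 and 262 CPM in Braf lines. The vehicle levels were 286, 46.5 and 45.4 CPM in Arid1a KO lines, 301, 222 and 223 CPM in Arid2 KO lines and 355, 501 and 309 CPM in Smarcb1 KO lines. The 3 Smarcb1 KO libraries all lay above the 3 Braf libraries, while the Arid1a KO lines split, with BA45198 above the Braf lines and the other 2 below them. H2-D1 was not called against wildtype (log2 -1.13 ± 0.58, adjusted p = 0.118) nor in Smarcb1 KO against Braf (0.87 ± 0.61, adjusted p = 0.34). The Arid1a KO value was -0.74 ± 0.61 (adjusted p = 0.563) and H2-D1 was called lower once BA45198 was left out.

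Under CKI, H2-D1 was at 276, 122 and 198 CPM in Braf lines and at 124, 40.5 and 53.2 CPM in Arid1a KO lines. It was at 319, 141 and 195 CPM in Arid2 KO lines and at 462, 403 and 219 CPM in Smarcb1 KO lines. The order of the groups resembled that in vehicle, with Arid1a KO lowest and overlapping Braf. Mouse class I genes share long stretches of sequence, so reads of H2-K1 and H2-D1 may have been split with other heavy chain genes, and their counts are uncertain to that extent. H2-Q2, another heavy chain gene, was at 0 CPM in both libraries of BA47473, BA49112, B52482, BS53965 and every Arid2 KO line. It was at 0.491 to 2.68 CPM in the other tumor line libraries, so it differed between lines of 1 genotype. Whether the lines differ in the sequence of their class I genes was not tested.

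B2m, the light chain shared by all class I molecules, was at 535, 691 and 674 CPM in wildtype. In vehicle it was at 231, 136 and 410 CPM in Braf lines, 786, 254 and 208 CPM in Arid1a KO lines, 448, 304 and 254 CPM in Arid2 KO lines and 230, 180 and 252 CPM in Smarcb1 KO lines. BA45198 in vehicle was the highest library of all 27, and the remaining tumor line libraries in vehicle lay below wildtype. B2m was lower in Braf lines than in wildtype (log2 -1.29 ± 0.43, adjusted p = 0.0197), a call lost without B47275 and without B48051. The vehicle differences of the knockouts from Braf ran from -0.24 ± 0.44 in Smarcb1 KO lines to 0.69 ± 0.45 in Arid1a KO lines, with none called.

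With CKI, B2m was at 272, 219 and 281 CPM in Braf lines, at 238, 208 and 259 CPM in Arid1a KO lines, at 280, 171 and 171 CPM in Arid2 KO lines and at 501, 213 and 359 CPM in Smarcb1 KO lines. The groups overlapped, and BS53736 was highest. B2m overlaps Patl2, which is also in the table, so reads from these genes may be shared. The strand setting is not given in the sources used here.

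Neither heavy chain nor B2m followed one direction under CKI. H2-K1 was higher in 4 lines and lower in 8, with a mean log2 ratio of -0.46 (SD 0.71, n = 12 lines), from -2.08 to 0.42. An exact two-sided sign-flip permutation test over the 12 lines gave p = 0.0381 (0.0635 after Benjamini-Hochberg adjustment over the 10 genes). H2-D1 was higher in 5 and lower in 7 lines (mean -0.21, SD 0.44), and B2m was higher in 6 and lower in 6 (mean -0.13, SD 0.79). In all 3 Arid2 KO lines H2-K1 and B2m were lower under CKI, with H2-K1 ratios of 0.602, 0.433 and 0.518. In edgeR the Arid2 KO differences were not called (H2-K1 log2 -0.95 ± 0.62, adjusted p = 0.522). With the cell line as a block, edgeR gave H2-K1 -0.96 ± 0.34 in Arid2 KO lines (adjusted p = 0.108). Over the 12 lines the block gave H2-K1 -0.45 ± 0.17 (adjusted p = 0.0515), so it narrowly missed the threshold there.

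**Figure D2:**
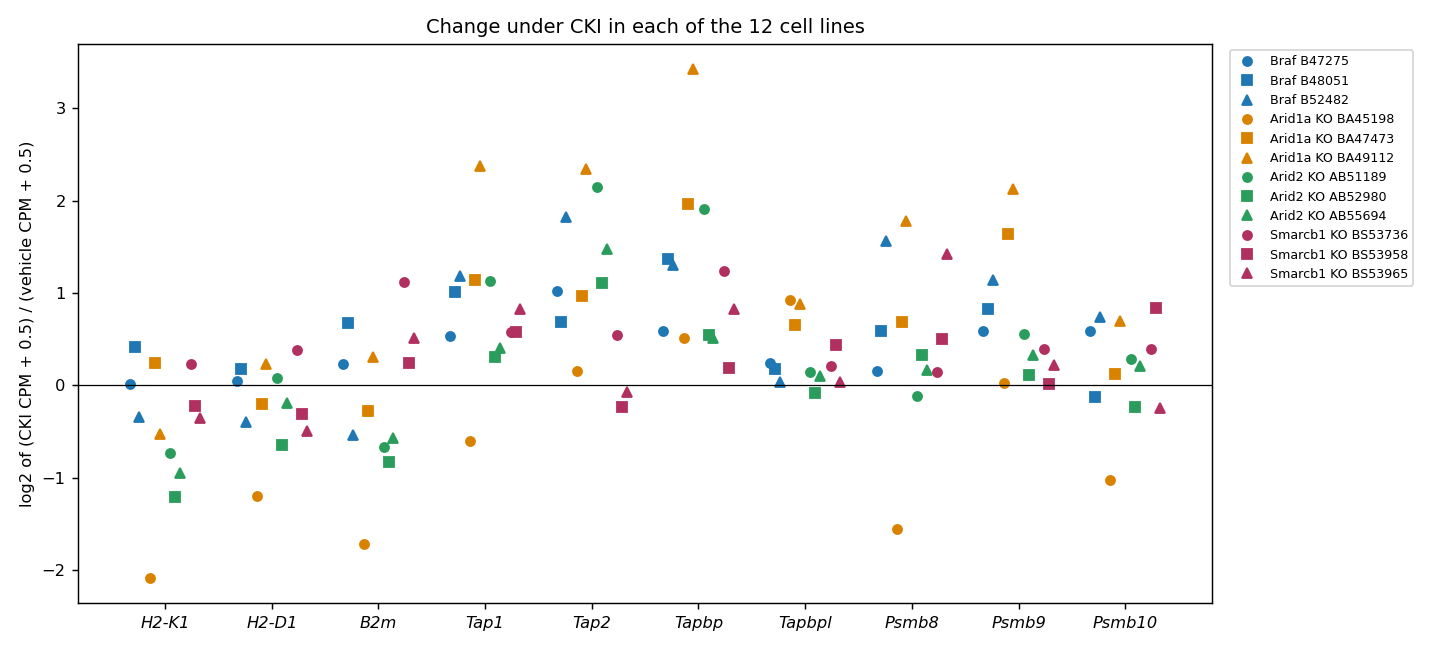
The change under CKI in each of 12 cell lines, as the log2 ratio of CPM in CKI to CPM in vehicle with 0.5 added to each, for the 10 genes. Colors mark the genotype and shapes the line, and points above the line at 0 are higher under CKI. All 12 points of Tapbp and of Psmb9 lie above 0, while those of H2-K1, H2-D1 and B2m lie on both sides.

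Tap1, one chain of the peptide pump, was at 20.1, 27.2 and 74.5 CPM in wildtype. In vehicle it was at 12.7, 14.3 and 10.4 CPM in Braf lines, 42.8, 15 and 10.7 CPM in Arid1a KO lines, 2.46, 15.1 and 29.2 CPM in Arid2 KO lines and 26.7, 18.6 and 24 CPM in Smarcb1 KO lines. The Smarcb1 KO lines all lay above the Braf lines, and the Arid2 KO lines had the largest ratio between highest and lowest line. Tap1 missed the threshold against wildtype (log2 -1.71 ± 0.7, adjusted p = 0.0531) and in Smarcb1 KO against Braf (0.88 ± 0.68, adjusted p = 0.384).

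Under CKI, Tap1 was at 18.6, 29.2 and 24.1 CPM in Braf lines, at 28.1, 33.5 and 57.6 CPM in Arid1a KO lines, at 6.01, 18.8 and 38.7 CPM in Arid2 KO lines and at 40.2, 28 and 43.1 CPM in Smarcb1 KO lines. It was higher than in vehicle in 11 of 12 lines, the exception being BA45198, and all Braf libraries under CKI lay above all Braf libraries in vehicle. The mean log2 ratio was 0.79 (SD 0.7, n = 12 lines; exact sign-flip permutation p = 0.00342, adjusted 0.00684). In edgeR over the 12 lines Tap1 gave 0.72 ± 0.34 and was not called (adjusted p = 0.117). With the cell line as a block, which compares the 2 libraries of each line with each other, it gave 0.82 ± 0.22 and was called (adjusted p = 0.0119).

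Tap2, the partner of Tap1, was far more variable between groups. It was at 26.9, 36.9 and 51.6 CPM in wildtype and at 2.07, 1.60 and 2.73 CPM in Braf lines in vehicle. Smarcb1 KO lines in vehicle had 24.5, 34.8 and 14.1 CPM, Arid1a KO lines 9.85, 6.41 and 3.16 CPM, and Arid2 KO lines 2.46, 4.38 and 3.87 CPM. Smarcb1 KO lines were the single genotype whose vehicle levels reached into the wildtype range, and every Arid1a KO library was above every Braf library. Braf lines held 0.0556 times the wildtype level (log2 -4.17 ± 0.54, edgeR adjusted p = 8.14e-06). Smarcb1 KO lines held 11.4 times the Braf level (log2 3.51 ± 0.54, adjusted p = 0.000625), a call kept in all 14 other settings tried. The Arid1a KO difference was 1.6 ± 0.51 (adjusted p = 0.0813), called by DESeq2 and without B52482. The Arid2 KO difference was 0.75 ± 0.5 (adjusted p = 0.606).

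Under CKI, Tap2 was at 4.73, 2.87 and 10.9 CPM in Braf lines, at 11, 13 and 18 CPM in Arid1a KO lines and at 12.6, 10 and 11.7 CPM in Arid2 KO lines. Each of these 9 lines was higher than in vehicle. Smarcb1 KO lines had 36.1, 29.5 and 13.4 CPM, with 1 line higher and 2 lower than in vehicle, so that 10 of 12 lines were higher in all. Over the 12 lines the rise was 1.12 ± 0.25 (log2, edgeR adjusted p = 0.00383). By genotype it was 1.54 ± 0.51 in Braf, 1.13 ± 0.5 in Arid1a KO and 1.68 ± 0.5 in Arid2 KO lines, none of them called, and 0.11 ± 0.49 in Smarcb1 KO lines. With the cell line as a block, Tap2 was called in Arid1a KO (adjusted p = 0.0447) and Arid2 KO lines (adjusted p = 0.0391). The Smarcb1 KO response was -1.43 ± 0.7 below that of Braf on the log2 scale, which was not called (unadjusted p = 0.0553, adjusted p = 1). Smarcb1 KO lines under CKI still held 4.23 times the Braf level (2.08 ± 0.51, adjusted p = 0.00961), a call lost when only the compared groups were fitted.

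Tapasin (Tapbp), which bridges the transporter and the empty class I molecule, was at 190, 208 and 251 CPM in wildtype. In vehicle it was at 139, 72.4 and 89.1 CPM in Braf lines, 159, 51.2 and 24.5 CPM in Arid1a KO lines, 62.3, 72.3 and 113 CPM in Arid2 KO lines and 118, 151 and 142 CPM in Smarcb1 KO lines. Under CKI it was at 209, 188 and 221, at 227, 201 and 267, at 236, 106 and 161, and at 280, 172 and 254 CPM in the same order of genotypes and lines. All 12 lines were higher under CKI, and in Braf, Arid1a KO and Smarcb1 KO lines the CKI libraries did not overlap the vehicle libraries. Of the 12 CKI libraries, 5 lay within the wildtype range.

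The fall of Tapbp against wildtype was -1.11 ± 0.44 (log2, edgeR adjusted p = 0.0462), and the call was kept in 5 of 12 other settings. No knockout differed from Braf by a called amount, with differences from -0.35 ± 0.46 to 0.45 ± 0.46 in vehicle. The rise under CKI over the 12 lines was 1.11 ± 0.23 (2.16-fold, adjusted p = 0.0027), and it was called in all 21 other settings. The mean log2 ratio was 1.2 (SD 0.9, n = 12 lines; exact sign-flip permutation p = 0.000488, the smallest that 12 lines allow, adjusted 0.00244). The largest single ratio was in BA49112, at 3.42 on the log2 scale. Within genotypes Tapbp was called in Arid1a KO lines alone (1.58 ± 0.47, adjusted p = 0.0352), and with 1.05 ± 0.47 in Braf, 1.03 ± 0.47 in Arid2 KO and 0.78 ± 0.46 in Smarcb1 KO lines the difference between genotypes was not called.

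Tapbpl, the tapasin relative that edits peptides on class I molecules, stood lower in every knockout than in Braf lines in vehicle. It was at 25.7, 30.2 and 37 CPM in wildtype and in vehicle at 21, 18.3 and 20.1 CPM in Braf lines. The knockouts in vehicle had 12, 8.74 and 9.30 CPM (Arid1a KO), 7.75, 9.50 and 9.38 CPM (Arid2 KO) and 7.64, 6.50 and 8.05 CPM (Smarcb1 KO). All 9 knockout libraries in vehicle lay below all 3 Braf libraries. The log2 differences were -0.98 ± 0.19 (edgeR adjusted p = 0.0135), -1.15 ± 0.19 (adjusted p = 0.038) and -1.43 ± 0.2 (adjusted p = 0.000237). These comparisons share the same Braf libraries. The Smarcb1 KO call was kept in all 14 other settings, the Arid1a KO call in 9 of 13 and the Arid2 KO call in 6 of 13. In Arid1a KO lines the call was lost without BA47473, BA49112 or B47275. In Arid2 KO lines in vehicle it was lost without AB51189, AB52980, AB55694, B47275 or B48051.

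Under CKI, Tapbpl was at 24.8, 20.9 and 20.8 CPM in Braf lines and at 23.1, 14 and 17.5 CPM in Arid1a KO lines, so that these groups then overlapped. It remained at 8.60, 8.98 and 10.1 CPM in Arid2 KO and at 8.93, 8.97 and 8.31 CPM in Smarcb1 KO lines, below every Braf library. The differences from Braf under CKI were -0.27 ± 0.19 in Arid1a KO (adjusted p = 0.565), -1.26 ± 0.19 in Arid2 KO (adjusted p = 0.0333) and -1.35 ± 0.2 in Smarcb1 KO lines (adjusted p = 0.000338). The Arid2 KO call was lost without AB51189, AB52980, B47275 or B48051. In Arid1a KO lines the rise with CKI was 0.88 ± 0.19 (adjusted p = 0.00807), against 0.17 ± 0.19 in Braf lines. The difference between these responses was 0.71 ± 0.27 and did not pass (unadjusted p = 0.0171, adjusted p = 0.835). Over the 12 lines Tapbpl rose by 0.34 ± 0.1 (adjusted p = 0.0154), higher in 11 lines. Braf lines in vehicle held 0.639 times the wildtype level (adjusted p = 0.0102).

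**Figure D3:**
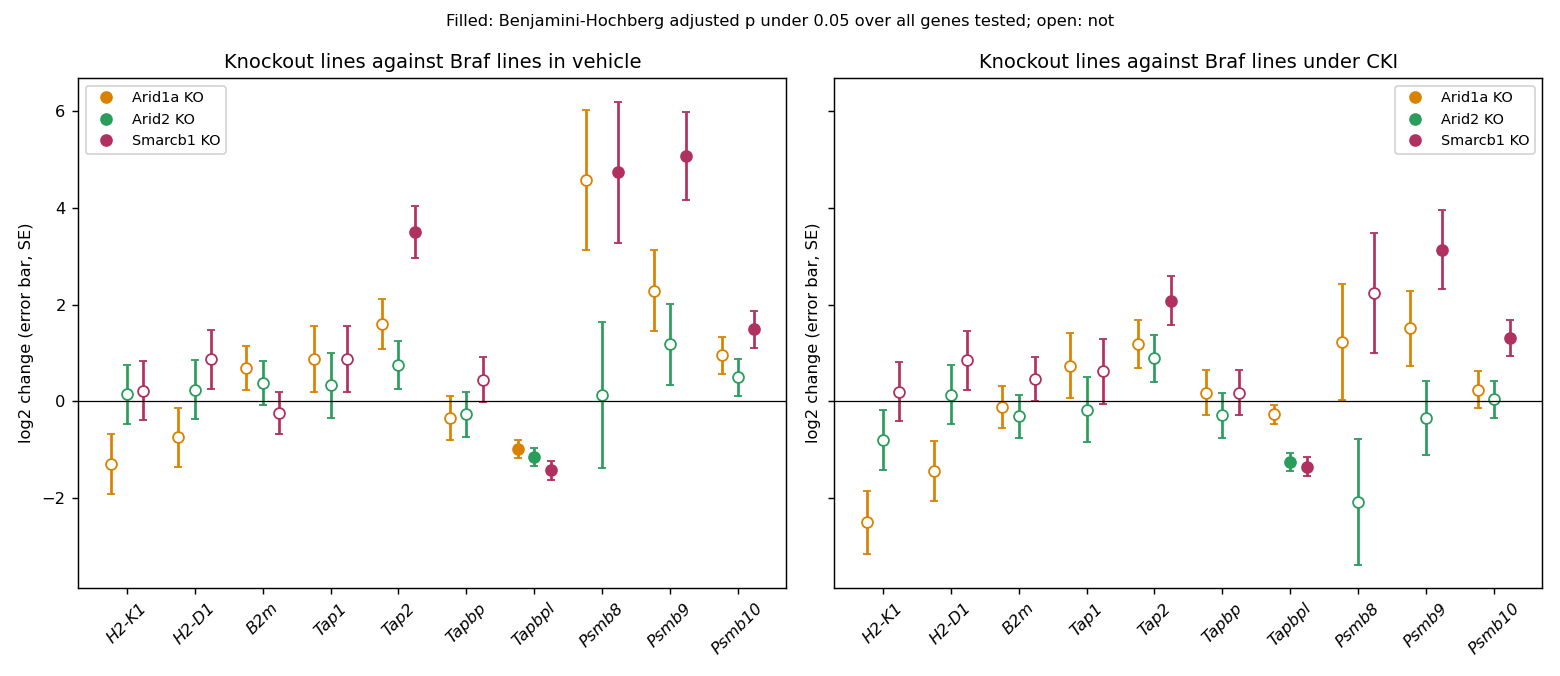
The log2 change of each knockout against Braf lines, in vehicle (left) and under CKI (right), for the 10 genes. Points are edgeR estimates from 3 lines per group, error bars are SE, and filled points passed an adjusted p of 0.05 over all genes tested. Tap2, Psmb9 and Psmb10 are filled and above 0 for Smarcb1 KO in both panels, and Tapbpl is filled and below 0 for all 3 knockouts in vehicle.

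The immunoproteasome subunits showed the widest contrasts. Psmb8, which replaces the chymotrypsin-like subunit Psmb5, was at 14.1, 22 and 33.6 CPM in wildtype. Braf lines in vehicle had counts of 1, 1 and 2 (0.0461, 0.0515 and 0.103 CPM). In vehicle it was at 4.54, 0.359 and 0.213 CPM in Arid1a KO lines, at 0.044, 0.0417 and 0.137 CPM in Arid2 KO lines and at 4.70, 1.02 and 0.129 CPM in Smarcb1 KO lines, where the counts were 99, 21 and 3. BA45198 and BS53736 stood out above all other tumor lines, and every Arid1a KO and Smarcb1 KO library was above every Braf library. Psmb8 was lower in Braf than in wildtype (edgeR adjusted p = 0.000301) and higher in Smarcb1 KO than in Braf lines (adjusted p = 0.0326). The fitted log2 changes, -8.33 ± 1.56 and 4.74 ± 1.46, rest on these few Braf counts and depend on the prior count of the fit. The Smarcb1 KO call was lost without B47275, B48051, B52482 or BS53736. The Arid1a KO value of 4.57 ± 1.45 had an adjusted p of 0.0827.

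Under CKI, Psmb8 was at 0.106, 0.333 and 1.28 CPM in Braf lines, at 1.21, 0.881 and 1.96 CPM in Arid1a KO lines and at 5.25, 1.65 and 1.19 CPM in Smarcb1 KO lines. In Arid2 KO lines it was at 0 (AB51189), 0.179 and 0.214 CPM. Psmb8 was higher under CKI in 10 of 12 lines and lower in BA45198 and AB51189. No comparison of CKI with vehicle was called, and the mean log2 ratio over the 12 lines was 0.47 (SD 0.89; exact sign-flip permutation p = 0.0923, adjusted 0.132).

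Psmb9, which replaces the caspase-like subunit Psmb6, was at 12.1, 17.4 and 29.6 CPM in wildtype and at 0.138, 0.155 and 0.103 CPM in vehicle-treated Braf lines, from counts of 3, 3 and 2. The vehicle levels were 1.70, 0.224 and 0.0853 CPM in Arid1a KO lines, 0.132, 0.375 and 0.410 CPM in Arid2 KO lines and 8.11, 2.52 and 3.49 CPM in Smarcb1 KO lines. Smarcb1 KO lines lay above every other tumor line in vehicle and below wildtype. The log2 changes were -7.16 ± 0.96 for Braf against wildtype (adjusted p = 1.06e-05) and 5.08 ± 0.91 for Smarcb1 KO against Braf (adjusted p = 0.00169). Both were called in every other setting tried (12 and 14), although their sizes depend on 2 or 3 counts per Braf library.

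With CKI, Psmb9 was at 0.459, 0.666 and 0.828 CPM in Braf lines, 1.74, 1.76 and 2.04 CPM in Arid1a KO lines, 0.432, 0.447 and 0.643 CPM in Arid2 KO lines and 10.8, 2.55 and 4.16 CPM in Smarcb1 KO lines. All 12 lines were higher than in vehicle, some by very little (smallest log2 ratio 0.01, largest 2.12). The exact sign-flip permutation test gave p = 0.000488 (adjusted 0.00244) for a mean log2 ratio of 0.66 (SD 0.66, n = 12 lines). In edgeR the rise was 1.2 ± 0.39 over the 12 lines (adjusted p = 0.0307), called in 11 of 21 other settings. It was lost without BA47473, BA49112, AB51189, AB55694, B47275, B48051, B52482 or BS53965. With the cell line as a block Psmb9 was also called in Arid1a KO lines (2.21 ± 0.7, adjusted p = 0.0338). Smarcb1 KO lines under CKI stood 3.14 ± 0.81 above Braf lines (8.84-fold, adjusted p = 0.0121), a call lost without B47275.

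Psmb10, which replaces the trypsin-like subunit Psmb7, was at 26.2, 33.8 and 44.4 CPM in wildtype. In vehicle it was at 7.92, 6.18 and 8.20 CPM in Braf lines, 24.6, 9.28 and 9.26 CPM in Arid1a KO lines, 7.79, 14 and 9.57 CPM in Arid2 KO lines and 19, 17.8 and 26.2 CPM in Smarcb1 KO lines. All Smarcb1 KO libraries were above all Braf libraries. Braf lines held 0.214 times the wildtype level (log2 -2.23 ± 0.38, adjusted p = 0.000129), and Smarcb1 KO lines held 2.8 times the Braf level (1.49 ± 0.38, adjusted p = 0.0139). The latter call was lost without BS53965. Under CKI the levels were 12.1, 5.62 and 14 CPM in Braf, 11.9, 10.2 and 15.4 CPM in Arid1a KO, 9.64, 11.9 and 11.1 CPM in Arid2 KO and 25, 32.3 and 22 CPM in Smarcb1 KO lines. Psmb10 was higher under CKI in 8 lines and lower in 4, and Smarcb1 KO lines remained 1.31 ± 0.38 above Braf lines (adjusted p = 0.0223). That call was lost without B47275, B48051 or BS53958.

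Set against its constitutive partner, in CPM per kilobase of exon so that genes of different length can be compared, the inducible subunit made up a small part of each pair in the tumor lines. Psmb8 was 22.1% to 37% of Psmb8 plus Psmb5 in wildtype, 0.0759% to 0.194% in vehicle-treated Braf lines and 0.22% to 8.98% in vehicle-treated Smarcb1 KO lines. Psmb9 was 4.87% to 11.5% of Psmb9 plus Psmb6 in wildtype, 0.0565% to 0.0637% in Braf and 0.992% to 4% in Smarcb1 KO lines in vehicle. Psmb10 was 17.8% to 28.2% of Psmb10 plus Psmb7 in wildtype, 3.26% to 6.23% in Braf and 6.4% to 12.5% in Smarcb1 KO lines. In vehicle the Smarcb1 KO ranges did not overlap the Braf ranges for any pair and lay below wildtype. The gap was narrow for Psmb8 (0.22% against 0.194%) and for Psmb10 (6.4% against 6.23%). That of Psmb8 rests on 3 counts in BS53965 and 2 counts in B52482, so it is not a firm separation. Under CKI the Psmb9 share in Smarcb1 KO lines was 1.07% to 5.43%, which reached into the wildtype range. Psmb6 itself was at 168 to 223 CPM per kb in wildtype and at 135 to 198 CPM per kb in vehicle-treated Braf lines, so the constitutive subunit overlapped between these groups.

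**Figure D4:**
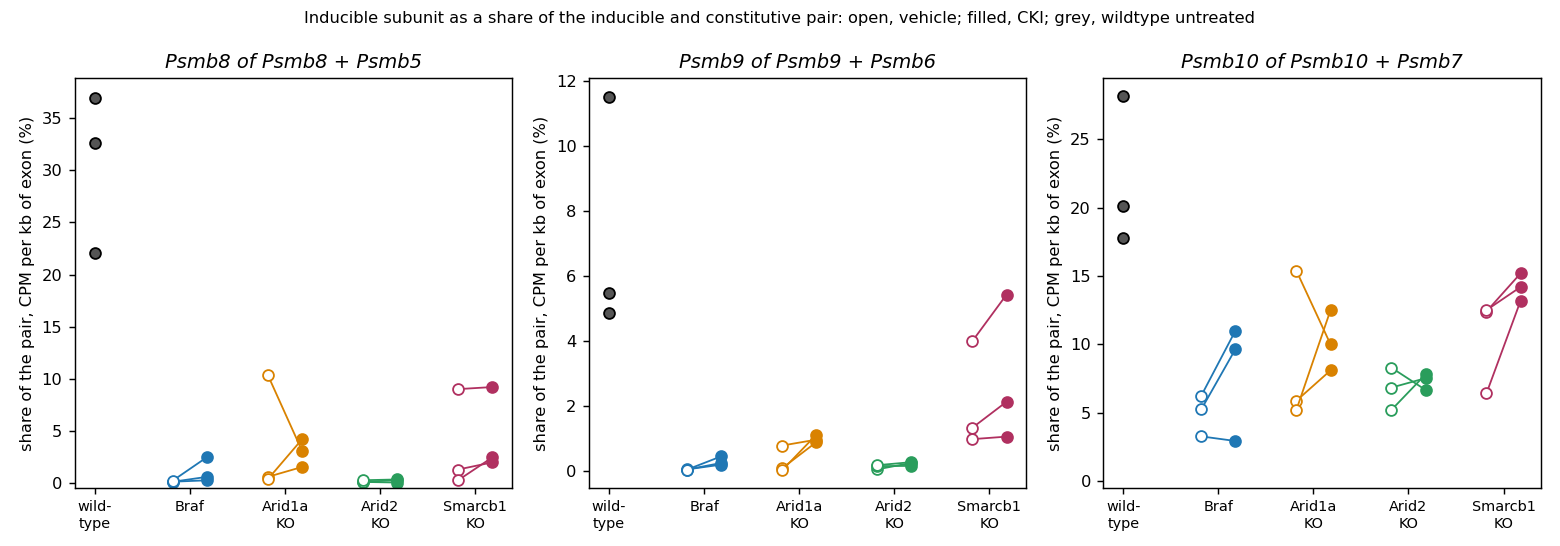
Share of each inducible proteasome subunit in its pair with the constitutive subunit, in percent of CPM per kilobase of exon, by library. Open points are vehicle, filled points CKI, grey points wildtype, and lines join the libraries of a cell line. All tumor line libraries lie below the wildtype libraries for Psmb8 and Psmb10.

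Per kilobase of exon, the median level over the 24 tumor line libraries was highest for B2m (294 CPM per kb), followed by H2-D1 (106), H2-K1 (63.4), Tapbp (53.5), Psmb10 (9.07), Tap1 (8.14), Tapbpl (4.01), Tap2 (3.04), Psmb9 (0.484) and Psmb8 (0.168). In wildtype the medians were 783 for B2m and between 9.2 (Tap1) and 327 (H2-K1) for the others. Exon lengths were taken from another build than the counts, so these levels are approximate.

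Across the 24 tumor line libraries the 10 genes did not form 1 block. As a description, H2-K1 and H2-D1 had a Pearson r of 0.869 in log2 CPM, Tap2 and Psmb9 of 0.84, and Psmb8 and Psmb9 of 0.816. The correlation of each gene with the mean standardised level of the 10 genes, itself included, ran from 0.845 for Psmb9 down to 0.388 for H2-K1 and -0.06 for Tapbpl. The libraries share genotypes, lines and treatments, so these are not 24 independent points. The 5 other genes most like that mean were Trim30a (r = 0.856), Kcnab2 (0.84), Gm6548 (0.838), Oasl2 (0.832) and Parp12 (0.825). Oasl2 is on the type I interferon response list used here, which does not hold every gene that interferons raise. The mean was highest in BS53736 under CKI (1.32 SD units), then in BA45198 in vehicle (0.9), and lowest in BA49112 (-1.13) and BA47473 (-0.9) in vehicle.

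Some cell lines stood apart in a way that the genotype did not share. Line BA45198 in vehicle had a summed level of 2470 CPM for 26 type I interferon response genes, against 329 and 327 CPM in BA47473 and BA49112 and 438 CPM in BA45198 under CKI. The same library had the highest B2m of all 27, and in that line H2-K1, H2-D1, B2m, Tap1, Psmb8 and Psmb10 were lower under CKI. The H2-K1 ratio there was -2.08, the B2m ratio -1.72, and the Psmb8 ratio -1.56 on the log2 scale. Line BS53736 had 592 CPM of these interferon genes in vehicle and 1200 CPM under CKI, and was highest among the tumor line libraries for H2-K1, Tap2, Tapbp, Psmb8 and Psmb9, each time under CKI. The part of the interferon genes in these levels was not tested. Without BS53736 the calls of Tap2, Tapbpl, Psmb9 and Psmb10 in Smarcb1 KO against Braf were kept in vehicle and under CKI.

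**Figure D5:**
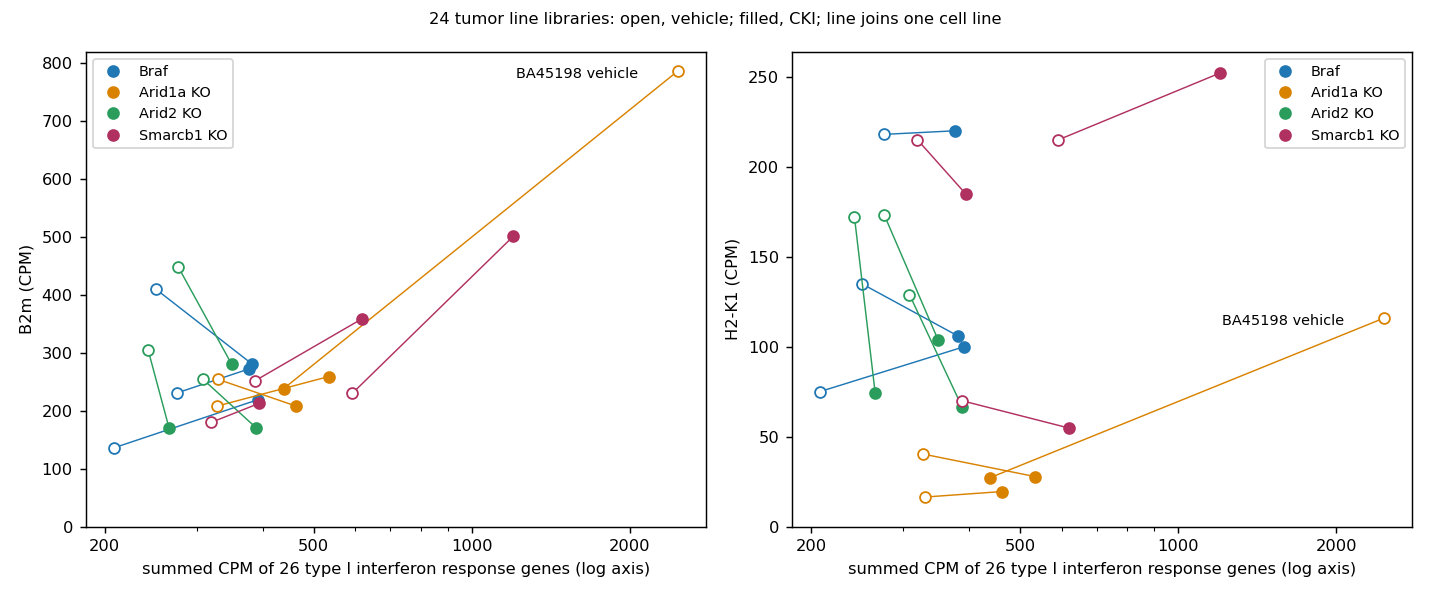
B2m (left) and H2-K1 (right) in CPM against the summed CPM of 26 type I interferon response genes (log axis) in the 24 tumor line libraries. Open points are vehicle, filled points CKI, and lines join the libraries of a cell line. BA45198 in vehicle lies far to the right at 2470 CPM, with B2m at 786 CPM.

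Other cell types in the wildtype libraries accompany every difference from wildtype. All 17 leukocyte markers measured were present in wildtype, where they summed to 346 to 555 CPM, and they summed to 2.77 to 19.7 CPM in the tumor lines. The T cell gene Cd3g was at 0 in all 24 tumor line libraries, but its lowest wildtype level was also low, at 0.501 CPM. The leukocyte gene Ptprc, which was at 16.9 CPM or more in wildtype, reached 0.581 CPM at most in the lines. Cd68, a lysosomal gene of macrophages, reached 18 CPM in the lines and was at 11.3 CPM or more in wildtype. The B cell gene Cd79a reached 5.96 CPM in the lines, above its lowest wildtype level of 0.322 CPM. MHC class II genes, which mark professional antigen presenting cells, summed to 1140 to 1850 CPM in wildtype and 3.04 to 131 CPM in the lines. In Braf lines 7 of 7 were lower, where 22.8% of all genes were. Of endothelial markers 6 of 7, of fibroblast markers 4 of 6 and of thyroid follicle markers 6 of 8 were also lower, while 0 of 7 epithelial markers were called by edgeR (0 with an unadjusted p under 0.05; DESeq2 was not run on this list). In the fit without wildtype the filter kept 6 class II, 6 endothelial and 6 follicle genes. So some of the lower genes passed the filter only through wildtype, where they are high, and their direction was fixed in advance. Tissue makeup, culture and the mutation cannot be told apart in this comparison, and in bulk RNA fewer cells of a type and less RNA per cell cannot be told apart either.

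Markers moved between the tumor lines too. In Smarcb1 KO lines in vehicle, where 18.1% of all genes were called, 0 of 6 tested leukocyte markers were called (1 at an unadjusted p under 0.05). The fibroblast gene Col1a1 was lower (not called without BS53736). The endothelial genes Pecam1 and Cdh5 were higher, and summed endothelial markers ran from 0.582 to 1080 CPM. In vehicle-treated Arid1a KO lines the fibroblast genes Dcn and Col1a2 were higher than in Braf, though not called without BA45198. In all 3 knockouts in vehicle the median epithelial marker was lower, and 0 of 7 had a positive change. The log2 medians were -7.55, -5.65 and -5.54 in Arid1a, Arid2 and Smarcb1 KO lines. There edgeR called 1, 0 and 1 of 7, where 3.63%, 0.0512% and 18.1% of all genes were called. It gave 5, 4 and 7 of 7 an unadjusted p under 0.05. Neither call was kept without BA45198 (Arid1a KO) or BS53736 (Smarcb1 KO), where 5 and 2 had an unadjusted p under 0.05. CKI over the 12 lines raised Csf1r and Lyz2 among leukocyte markers, which reached 1.11 and 7.65 CPM at most in the tumor lines. It also raised 3 of 6 fibroblast markers and the thyroid follicle genes Tg and Tshr, where 13.6% of all genes were higher. Without BA45198 Lyz2 and 1 fibroblast gene were not called, and without BS53736 Tshr and the fibroblast genes were not. Their part in the levels of the class I genes was not tested.

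Among the other class I heavy chains, 18 of 21 listed genes were in the table. Against wildtype 9 of 15 were lower and 1 higher in Braf lines, where 22.8% of all genes were lower. The lower genes included H2-Q7 (log2 -6.74 ± 1.18, adjusted p = 0.000166). In Smarcb1 KO against Braf in vehicle, H2-Q7 was higher (3.85 ± 1.13, adjusted p = 0.0261) and Cd1d1 (-5.95 ± 1.27, adjusted p = 0.00509) and Mr1 (-1.97 ± 0.59, adjusted p = 0.0296), which present lipids and small metabolites, were lower. In that comparison 6.93% of all genes were higher and 11.2% lower. The median over the 14 genes tested was 0.67, beside -0.02 over all genes. H2-Q7 was at 2.75, 0.776 and 0.258 CPM in the Smarcb1 KO lines and at most at 0.138 CPM in Braf lines in vehicle. Without BS53736 the call of Cd1d1 alone was kept in vehicle, and the median was -0.37. Under CKI against vehicle over the 12 lines Mr1 alone was called, higher (1.16 ± 0.29, adjusted p = 0.00768).

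Of 19 constitutive proteasome and activator genes, Psme1 and Psme2, which encode the interferon-inducible PA28 activator, were called in several of the same comparisons as the immunoproteasome genes. Psme1 (log2 -1.13 ± 0.22) and Psme2 (-0.89 ± 0.24) were lower in Braf lines than in wildtype, while 2 genes, among them Psme4, were higher. In that comparison 46.5% of all genes were called. In Smarcb1 KO against Braf in vehicle Psma6, Psme2 (0.83 ± 0.25, adjusted p = 0.0295) and Psmb2 were higher and Psme4 was lower. These were 4 of 19 called, near the 18.1% of all genes called there, with a median of 0.38. With CKI over the 12 lines Psme1 (0.33 ± 0.11, adjusted p = 0.0323) and Psme2 (0.39 ± 0.12, adjusted p = 0.0262) were higher and Psma7 was lower, where 27.2% of all genes were called. Without BS53736 neither Psme gene was called over the 12 lines, and in vehicle Psma6 and Psme2 were.

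Peptide trimming and loading chaperone genes did not share this pattern. Of 12, 6 were higher in Braf lines than in wildtype, led by Tpp2 (1.51 ± 0.15), Ganab (1.19 ± 0.16) and Thop1 (1.86 ± 0.28), and 2 were lower. Over all genes 46.5% were called there. In Smarcb1 KO lines in vehicle Uggt1, Ganab and Canx, which handle glycoprotein folding, were lower and none was higher, where 11.2% of all genes were lower. None of these was called without BS53736. CKI over the 12 lines lowered Thop1 (-0.65 ± 0.14, adjusted p = 0.00351), a cytosolic peptidase, and Hspa5 (-0.59 ± 0.17, adjusted p = 0.0145), an endoplasmic reticulum chaperone.

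Of 17 transcription regulators of class I genes, 5 were lower and 2 higher in Braf lines than in wildtype. Over all genes 22.8% were lower and 46.5% were called, so these counts do not set the regulators apart. Irf1, an interferon regulatory factor, was at 47.1, 41.6 and 72.1 CPM in wildtype and at 16.7, 10 and 17.1 CPM in Braf lines in vehicle (log2 -1.87 ± 0.43, adjusted p = 0.00154). In Smarcb1 KO lines in vehicle it was at 46.1, 18.1 and 40.7 CPM, above all Braf libraries (1.24 ± 0.42, adjusted p = 0.0495), and Nfkb2 (1.35 ± 0.41, adjusted p = 0.0296) and Atf1 (0.71 ± 0.2, adjusted p = 0.0234) were higher as well. These were 3 of 17, near the 18.1% of all genes called in that comparison. Without BS53736 the call of Nfkb2 alone was kept. CKI raised Irf1 (0.81 ± 0.21, adjusted p = 0.0094) and Rela (0.52 ± 0.11, adjusted p = 0.00333), an NF-kB subunit, over the 12 lines and lowered Atf1 (-0.39 ± 0.1, adjusted p = 0.00882), within 4 higher and 3 lower of 17. Over all genes 27.2% were called and 13.6% were higher. Without BS53736, 3 of the 17 regulators were higher and 1 lower. Nlrc5, the class I transactivator, named here for its role after its values were seen, was lower in Braf than in wildtype (-3.5 ± 1.28, adjusted p = 0.0307). Its level spread widely, with 9.07, 7.17 and 0.547 CPM in Arid2 KO lines in vehicle.

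Of the interferon gamma receptor pathway, 7 of 16 genes tested were lower in Braf lines than in wildtype, and of the type I interferon response 11 of 26 were lower and 1 was higher. Over all genes 22.8% were lower there. In the tumor lines 15 genes of the first list were tested. In Smarcb1 KO against Braf in vehicle 5 were higher and 0 lower, led by Socs3 (2.74 ± 0.53, adjusted p = 0.00283), Gbp7 (4.44 ± 1.1, adjusted p = 0.0113) and Socs1 (3.17 ± 0.8, adjusted p = 0.013), with a median of 1.24. Socs1 and Socs3 encode feedback inhibitors of cytokine signaling, and Gbp7 a guanylate-binding protein. Over all genes 6.93% were higher in Smarcb1 KO against Braf in vehicle. Without BS53736, 4 genes of the list were higher, Socs1, Socs3, Gbp2 and Gbp7. In vehicle-treated Arid1a KO lines Gbp3 and Gbp7 were higher, and neither was called without BA45198. With CKI over the 12 lines Irf1 and Ptpn2 were higher, where 13.6% of all genes were, and Irf1 alone was without BS53736. Of 25 tested type I interferon response genes, 1 was higher (Ifnar1) and 1 lower (Oasl1) in Smarcb1 KO in vehicle, and 1 was higher (Isg15) in Arid1a KO in vehicle. Without BS53736 the Smarcb1 KO count was 0 in each direction, with 3 genes at an unadjusted p under 0.05. Isg15 in vehicle was at 157 CPM in BA45198 and at 1.97 and 1.75 CPM in BA47473 and BA49112, and without BA45198 it was not called. With CKI over the 12 lines 0 were higher and 1 was lower (Mx1, -3.79 ± 1.05, adjusted p = 0.0175). CKI in Arid1a KO lines lowered Ifi44, Bst2 and Oasl1, with a median of -2.67 over the 25 genes. In BA45198 Ifi44 went from 115 to 0.906 CPM and Bst2 from 161 to 6.72 CPM. The summed level of the list was higher under CKI in the other lines, 463 against 329 CPM in BA47473 and 534 against 327 CPM in BA49112. Without BA45198 the median was 1.13 and 0 genes were lower in Arid1a KO lines, and over the 12 lines 9 of 25 were higher and 0 lower. That line was left out after the data were seen. The share of all genes called without it is not given here, so nothing is read from these counts. Of 6 class II genes tested in the tumor lines, H2-DMa was higher in Smarcb1 KO in vehicle (4.1 ± 0.95, adjusted p = 0.00808) and H2-DMb1 rose under CKI over the 12 lines (1.71 ± 0.52, adjusted p = 0.0217).

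Counted by line, the direction of the CKI response was shared most in the transport, tapasin and Psmb9 genes. At least 10 of 12 lines were higher for Tap1 (11), Tap2 (10), Tapbp (12), Tapbpl (11), Psmb8 (10) and Psmb9 (12), 6 of the 10 genes, where 19% of all genes tested did so. Some rises of Psmb8 rest on few counts, as in B47275 (1 in vehicle, 3 under CKI) and AB52980 (1 and 4). The smallest rise of Psmb9 had a log2 ratio of 0.01. In Braf lines the CKI libraries of Tap1, Tap2, Tapbp, Psmb8 and Psmb9 all lay above the vehicle libraries, 5 of 10, where 7.27% of all genes did so, although none of these was called in that genotype (adjusted p from 0.271 for Tap2 to 0.645 for Tap1).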

How the data were processed

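RNA from 27 mouse samples was sequenced (TRIzol, TruSeq RNA kit, per the labels' protocols). The values are raw read counts per gene symbol that the authors deposited, with 1 column per library. Tools listed in the submitters' processing notes are STAR 2.4, HTSeq 0.6.1 and DESeq2, and the build listed per the submitters' processing notes is mm9. Annotation and strand setting: not given in the sources used here. All columns were mapped to a sample by name.

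The test was the quasi-likelihood F test of edgeR 4.0.16 (filterByExpr by group, TMM scaling), run under R 4.3.3 with limma 3.58.1. A call needs a Benjamini-Hochberg adjusted p under 0.05, taken over every gene in the fit. The 24 tumor line libraries shared one fit (15634 genes). The wildtype libraries entered only the comparison with Braf vehicle, in a fit of 27 libraries (16821 genes). Genes that passed the filter of this fit only through wildtype, where they are high, had their direction fixed in advance. They are part of the list counts and of the share of all genes lower. SEs are approximate, as they come from the F statistic. CPM levels use the TMM factors of all 27 libraries, and log2 ratios per line a pseudocount of 0.5 CPM. Alternatives were RLE factors, plain totals, DESeq2 1.42.0, other filters (none, or 1 CPM in 6 libraries), other sets of libraries, each line left out, and the cell line as a replicate block. Vehicle and CKI libraries of a line are paired, being the same cell line: their deviations from group means had r between 0.251 and 0.782 in all 12 lines. The procedure was tested on simulated data.

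All 10 members were described in every comparison. Of the lists of other class I heavy chains, trimming enzymes and chaperones, proteasome genes, regulators, interferon gamma and type I genes and class II genes, up to 3 called genes with the smallest adjusted p were named, with the 5 other genes of highest r with the members' mean. Marker lists covered follicle, leukocyte, endothelial, fibroblast and epithelial cells. The members and lists were chosen with earlier results of these data known. Promoters came from RefSeq (GRCm38.p6) and exon lengths from GENCODE vM21. The lines of a group are separate cell lines per the labels. Counting error limits the low values.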

Additional observations from a re-analysis of the deposited data

How the results depend on the processing

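All 26 called log2 changes of single genes kept their sign in all 368 alternative values, and 59 of these were no longer called. The number of the 10 genes called moved as follows. Braf against wildtype gave 8, and 5 to 8 when 1 line or library was left out. Arid1a KO against Braf in vehicle gave 1, 3 with DESeq2, 0 with only the compared groups, and 0 to 2 with a line left out. Under CKI it gave 0, 1 with DESeq2, 1 in the fit of 27 libraries, and 0 to 2. Arid2 KO against Braf gave 1 in vehicle and 1 under CKI, and in each case 0 with no filter, 0 with only the compared groups, and 0 to 1 with a line left out. Smarcb1 KO against Braf under CKI gave 4, 1 with only the compared groups, and 2 to 4. CKI against vehicle in Arid1a KO lines gave 2, 0 with only the compared groups, 0 to 3 with a line left out, and 4 with the cell line as a replicate block, or 5 in the block without BA45198. In Arid2 KO lines it gave 0, 1 with DESeq2 and 1 with the replicate block. Over the 12 lines it gave 4, 2 with no filter, 2 without BS53958 and BS53965, and 7 in the replicate block without BA45198. The last 2 of these settings, and the pathway and marker lists without BA45198 or BS53736, were chosen after seeing the data. The block on all lines gave 5 there, the fifth being Tap1, and ended no call. Other scalings moved the median log2 change of all genes by more than 0.1 only against wildtype, from 0.02 to -0.14 with RLE factors and to 0.19 with plain totals. Depth limits Psmb8 and Psmb9, with 1 to 3 counts per Braf vehicle library, and the shallow CKI library of BS53965. The cause of the other shifts was not tested.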
